A study of Mus musculus with 2 samples.

Results

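The Fc receptor genes of liver macrophages were taken from a table of 22322 genes by matching Ensembl gene IDs to 8 symbols, namely Fcgr1, Fcgr3, Fcgr4, Fcgr2b, Fcer1g, Fcgrt, Fcer2a and Fcrl1. All 8 were in the table and all 8 reached 1 FPKM in at least 1 library, as did 10770 of the 22322 genes. FPKM is the number of sequenced fragments scaled to transcript length and to the library's total, so that levels of different genes can be set side by side. Fcer2a reached the floor of 1 FPKM only through the FABP7 KO library.

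The study compared macrophages from the metastatic livers of FABP7 KO mice with those of WT mice, both of C57BL/6 background and, by the study's methods, young adult males. FABP7 is a fatty acid binding protein, and the knockout was not restricted to macrophages, while the injected tumour cells were the same for both genotypes. Mice of both genotypes received 500000 MC38 cells, a mouse colon carcinoma line, by injection of 100 µl into the spleen, and liver macrophages were purified on day 10 by positive selection for F4/80. There was 1 library per genotype, the sources do not say how many mice stand behind each, and no liver without metastases was among the libraries. A difference between the libraries therefore has no replicate check, no test was possible and no p-value is given.

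Fabp7 stood at 0.69 FPKM in the FABP7 KO library and at 354 FPKM in the WT library. The label macrophage was set beside 10 macrophage and 10 Kupffer cell markers, all of them at 1 FPKM or more. That floor alone does not separate cell types, since all 12 sinusoidal endothelial and all 12 hepatocyte markers listed also reached it. Adgre1, which encodes F4/80, stood at 925 FPKM in the FABP7 KO library and 864 FPKM in the WT library, and the Kupffer cell gene Clec4f at 4156 and 3188 FPKM in the same order. The steps between low FPKM values gave a depth of about 17960000 fragments for the FABP7 KO library and 18080000 for the WT library.

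Fc receptors bind the constant part of antibodies and join antibody recognition to the phagocytes that clear opsonized cells. In mice the activating receptors Fcgr1, Fcgr3 and Fcgr4 signal through the common gamma chain Fcer1g, whose ITAM is phosphorylated by Src family kinases and recruits Syk. The inhibitory receptor Fcgr2b carries an ITIM that recruits the lipid phosphatase Inpp5d, and the ratio of activating to inhibitory receptors sets the threshold for macrophage activation by immune complexes. The neonatal receptor Fcgrt binds IgG and albumin in acidic endosomes and returns them to the cell surface, sparing them from degradation. In liver, Kupffer cells carry activating receptors, whereas Fcgr2b is a well known receptor of sinusoidal endothelial cells.

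Levels of the 8 genes fell into a high and a low class in both libraries. Fcer1g was the highest, followed by the activating receptors and Fcgrt at 181.66 to 460.81 FPKM, and Fcgr2b, Fcrl1 and Fcer2a stood at 34.28 FPKM or below. With 1 library per genotype it cannot be said which neighbours in this order differ. Of the 8 members, 2 (Fcgr2b and Fcer2a) were at least 2-fold higher in the FABP7 KO library on the scale of FPKM + 1, against 2.21% of the 10770 measured genes, and 0 were at least 2-fold lower, against 2.95% (5.16% in either direction). At 1.5-fold, 3 members (these and Fcgrt) were higher, against 8.01% of measured genes, and 0 lower, against 7.35%. Fcer2a passed the floor only through the FABP7 KO library, where it was higher. Its place in both counts is thus not independent of the floor. With a floor of 5 FPKM, which removes Fcer2a, 1 member was at least 2-fold higher. The FPKM + 1 scale is used for every count of genes past 2-fold here, and it understates the ratios of genes at low FPKM. The 2-fold shares above are the background of those counts. In the plot of the members by library, the steep lines belong to Fcgr2b, Fcgrt and Fcer2a.

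**Figure D1:**
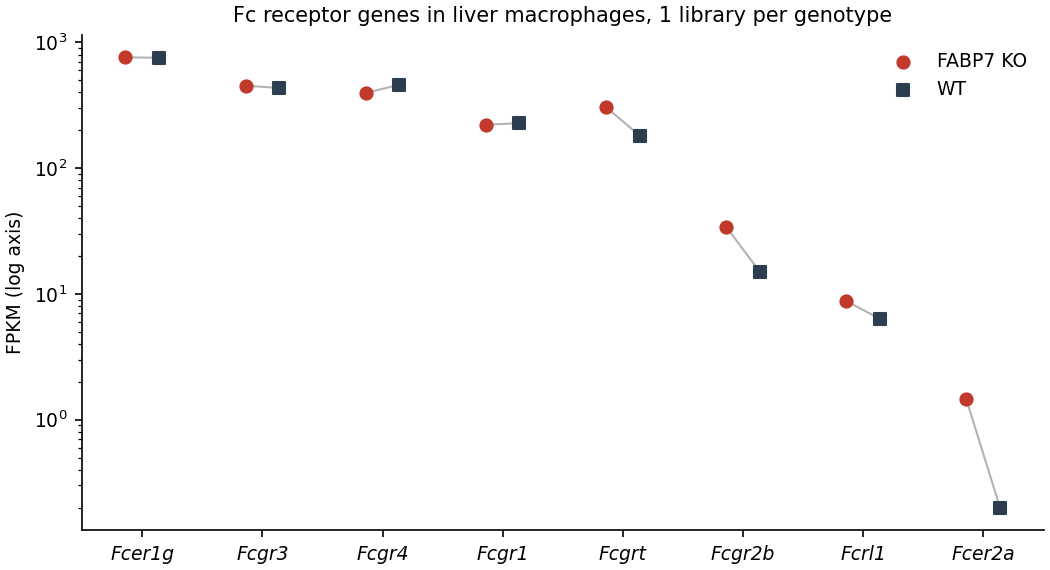
FPKM of the 8 Fc receptor genes on a log axis, with the FABP7 KO library (red circle) left of the WT library (dark square) for each gene and a grey line joining both. Fcer1g, Fcgr3, Fcgr4 and Fcgr1 stand between 221.87 and 761.98 FPKM in both, whereas Fcgr2b is at 34.28 FPKM in FABP7 KO and 15.01 FPKM in WT.

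Among the activating receptors, Fcgr1 (ENSMUSG00000015947), the high affinity receptor for monomeric IgG, had 221.87 FPKM in the FABP7 KO library and 227.90 FPKM in the WT library. Its ratio was 0.974 with a 95% counting interval of 0.947 to 1.00 (about 10317 and 10668 fragments), and its log2 ratio of -0.04 lay near the median of all measured genes, 0.004. Fcgr1 ranked 303rd of the 22322 genes in FABP7 KO and 323rd in WT. The gene lies on chromosome 3 at 96282909 to 96293969, minus strand, in the GENCODE M21 annotation of GRCm38, whereas the authors' own build was not stated.

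Fcgr3 (ENSMUSG00000059498), a low affinity receptor for IgG complexes, had 453.02 FPKM in the FABP7 KO library and 434.56 FPKM in the WT library. The ratio was 1.04 (counting interval 1.01 to 1.07) and the log2 ratio 0.06. This interval lies above 1, but it covers counting error only and no spread between mice, and 4685 of the 10770 measured genes had a higher log2 ratio. Fcgr3 was thus close to equal in both libraries.

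Fcgr4 (ENSMUSG00000059089), a receptor of intermediate affinity for IgG2 complexes, had 396.87 FPKM in the FABP7 KO library and 460.81 FPKM in the WT library. It was the lowest of the 8 members in log2 ratio, at -0.22, with a ratio of 0.861 (counting interval 0.837 to 0.886). Such a value was common in these libraries, since 2924 measured genes had a lower log2 ratio and the 10th percentile was -0.50. Within the FABP7 KO library Fcgr4 was 0.876 times Fcgr3, against 1.06 times in the WT library.

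Fcer1g (ENSMUSG00000058715), the common gamma chain on which all 3 activating receptors depend for assembly and signalling, had 761.98 FPKM in the FABP7 KO library and 754.12 FPKM in the WT library. Its ratio was 1.01 (counting interval 0.982 to 1.04), and it ranked 61st in FABP7 KO and 66th in WT of all genes. Summed over Fcgr1, Fcgr3 and Fcgr4, the activating receptors had 1071.76 FPKM in FABP7 KO and 1123.27 FPKM in WT. The gamma chain stood at 0.711 times that sum in FABP7 KO and 0.671 times in WT.

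Fcgr2b (ENSMUSG00000026656), the only inhibitory Fc gamma receptor of the mouse, had 34.28 FPKM in the FABP7 KO library and 15.01 FPKM in the WT library. The ratio was 2.28 with a counting interval of 2.12 to 2.47 (about 2182 and 962 fragments), and the log2 ratio was 1.14. Of the 10770 measured genes, 145 had a higher log2 ratio. Fcgr2b ranked 2083rd of the 22322 genes in FABP7 KO and 4390th in WT, far below the activating receptors in each. In bulk RNA of this kind, more cells that express a gene and more RNA per cell cannot be told apart.

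**Figure D2:**
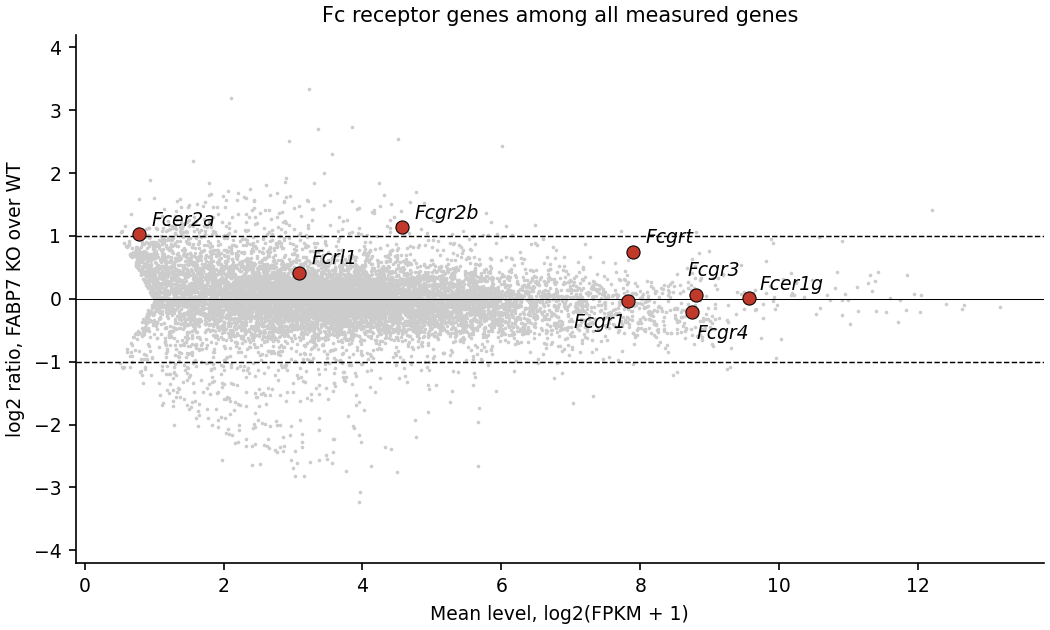
Log2 ratio of FABP7 KO over WT (FPKM + 1, vertical axis) against mean level (mean of log2(FPKM + 1), horizontal axis) for the measured genes in grey and the 8 Fc receptor genes in red, with dashed lines at 2-fold. Fcgr1, Fcgr3, Fcgr4 and Fcer1g lie between -0.22 and 0.06, Fcgrt at 0.75 and Fcgr2b at 1.14, and 1 gene (Fabp7) lies outside the plotted range.

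The genes for Fcgr2b, Fcgr4, Fcgr3 and Fcer1g lie in that order on chromosome 1 (GRCm38), between 170958617 and 171234365. Fcgr2b and Fcgr3 are close copies in their extracellular part, which bears on how reads are shared between an inhibitory and an activating receptor. Over the exons for the immunoglobulin-like domains, Fcgr2b matched Fcgr3 at 93.8% (exon 3) and 98.0% (exon 4) of aligned bases, whereas it matched Fcgr4 at 65.4% and 62.4% and Fcgr1 at 59.6% and 65.0%. The longest identical stretch of coding sequence ran for 129 bases across the border of exons 3 and 4, and between other pairs of the 4 Fc gamma receptors for 9 to 14 bases. It is shown here because fragments that fall wholly inside it cannot be assigned to either gene by sequence. In the coding sequences of both genes below, read 5′ to 3′ on the minus strand, capitals mark the identical stretch and small letters the 10 bases on each side. Each entry gives the span on GRCm38, intron included.
Fcgr2b, chr1:170966664-170968091: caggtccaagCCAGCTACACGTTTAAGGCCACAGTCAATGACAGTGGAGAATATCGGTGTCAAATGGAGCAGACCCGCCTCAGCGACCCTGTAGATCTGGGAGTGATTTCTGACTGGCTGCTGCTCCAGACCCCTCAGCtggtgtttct
Fcgr3, chr1:171054157-171057802: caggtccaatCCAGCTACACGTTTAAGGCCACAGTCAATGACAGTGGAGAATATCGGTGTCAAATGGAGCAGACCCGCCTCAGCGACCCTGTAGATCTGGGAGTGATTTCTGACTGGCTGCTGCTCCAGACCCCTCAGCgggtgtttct

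Of all 50-base words in the coding sequence, 166 were shared by both genes, or 17.1% of those of Fcgr2b and 22.1% of those of Fcgr3. No such word was shared between any other pair of the 4 receptors. In the whole Fcgr2b transcript of 3544 bases, 288 of 3347 words (8.60%) occurred in other genes, 166 of them in Fcgr3. Of the words of Fcer2a, 1.78% occurred in other genes. The sources do not state how reads of such stretches were assigned, and the Fcgr2b values could hold fragments of Fcgr3, which was 13.2 times as high in FABP7 KO and 29.0 times as high in WT. Fcgr3 itself had a log2 ratio of 0.06. An antisense gene also overlaps 155 exon bases of Fcgr2b, and the sources do not state whether the counting used strand.

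The ratio of activating to inhibitory receptors, which does not depend on how the libraries are scaled to each other, was 31.3 in the FABP7 KO library and 74.8 in the WT library. The FABP7 KO ratio was 0.418 times that of WT, a log2 difference of -1.26. Taken alone, Fcgr1 was 6.47 times Fcgr2b in FABP7 KO and 15.2 times in WT. Fcgr4 was 11.6 times Fcgr2b in FABP7 KO and 30.7 times in WT. Without Fcgr3, the member most like Fcgr2b in sequence, the summed ratio was 18.0 in FABP7 KO and 45.9 in WT. Leaving Fcgr3 out changes the numerator only, and does not remove fragments of Fcgr3 that may have been counted as Fcgr2b. The difference between libraries lay in Fcgr2b, since the activating sum was 0.954 times as high in FABP7 KO as in WT. All of these are ratios of bulk RNA, and Fcgr2b RNA of sinusoidal endothelial cells may enter them. Markers of those cells had a median log2 ratio of 1.54. Whether the balance of receptors within macrophages differed was not tested.

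**Figure D3:**
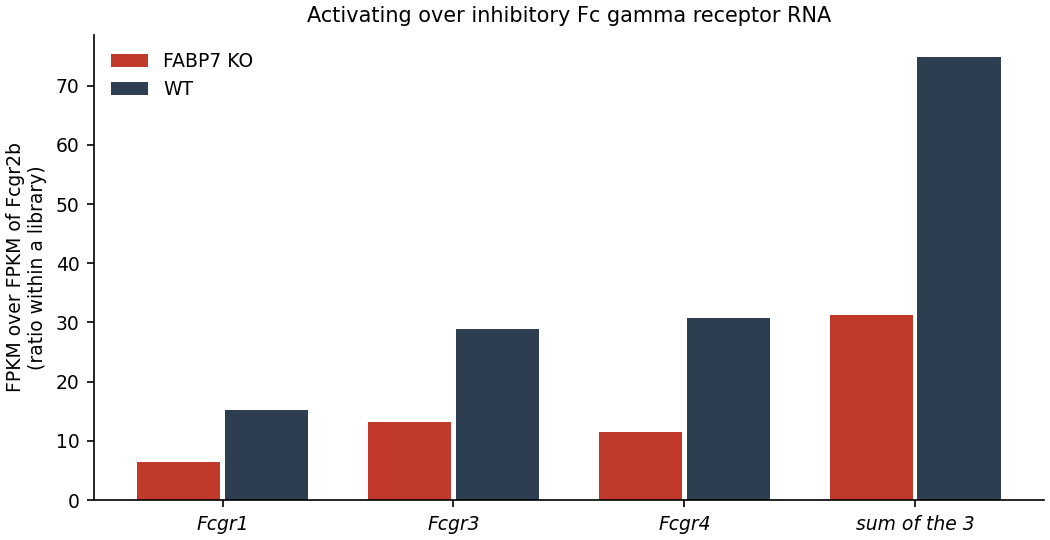
FPKM of Fcgr1, Fcgr3, Fcgr4 and of their sum, each divided by the FPKM of Fcgr2b in the same library (vertical axis, from 0), with FABP7 KO in red left of WT in dark blue and 1 library per bar. The summed ratio was 31.3 in FABP7 KO and 74.8 in WT, and each single ratio was also lower in FABP7 KO.

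The level of Fcgr2b relative to other genes also rests on the length its fragments were divided by. Among genes whose longest coding transcript differs from their merged exons, the longest coding transcript gave near-whole fragment numbers for 67.3% of values in FABP7 KO and 75.2% in WT, against 27.7% and 20.5% for merged exons. For Fcgr2b that transcript has 3544 bases, of which the last exon holds 2484, while another transcript of the gene has 1462 bases. Divided by 1462 bases, Fcgr2b would stand at 83.1 FPKM in FABP7 KO and 36.4 FPKM in WT, and the activating to inhibitory ratio would be 12.9 in FABP7 KO and 30.9 in WT. The fold difference between the libraries is the same with either length.

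Fcgrt (ENSMUSG00000003420), the neonatal Fc receptor, had 305.85 FPKM in the FABP7 KO library and 181.66 FPKM in the WT library. The ratio was 1.68 (counting interval 1.63 to 1.74, about 9723 and 5813 fragments) and the log2 ratio 0.75, short of the 2-fold size rule, with 513 of 10770 measured genes higher. In FPKM the difference was 124.19, more than for any other of the 8 members. The light chain of the receptor, B2m, had 3388.88 FPKM in FABP7 KO and 3854.56 FPKM in WT, and stood at 11.1 times Fcgrt in FABP7 KO and 21.2 times in WT. Alb, which encodes the albumin that the receptor recycles and is made by hepatocytes, had 304.61 FPKM in FABP7 KO and 144.19 FPKM in WT, a log2 ratio of 1.07.

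The members associated with B cells were at low levels. Fcer2a (ENSMUSG00000005540), the low affinity IgE receptor CD23 of mature B cells, had 1.45 FPKM in the FABP7 KO library and 0.20 FPKM in the WT library. These values stand for about 58 and 8 fragments, so that the ratio of 7.25 has a counting interval of 3.47 to 17.7, and the log2 ratio of 1.03 on the FPKM + 1 scale understates it. Fcrl1 (ENSMUSG00000059994), an Fc receptor-like protein of the B cell surface, had 8.78 FPKM in FABP7 KO and 6.34 FPKM in WT, with a ratio of 1.38 (counting interval 1.16 to 1.65) and a log2 ratio of 0.41.

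Promoter windows were read for all 8 members, as the 250 bases before the RefSeq start on GRCm38.p6. They were searched on both strands for GAGGAA, a core sequence of sites for the myeloid factor PU.1, and for TTCNNNGAA, the form of gamma-activated sites, through which interferon gamma induces genes. GAGGAA was in 23.3% of all 32841 windows and TTCNNNGAA in 7.02%. The first was found in the windows of Fcgr1, Fcgr3, Fcgr4 and Fcrl1 and the second in that of Fcgr1 alone, while the windows of Fcgr2b, Fcer1g, Fcgrt and Fcer2a held neither. The Fcgr2b window lies for 203 of its 250 bases inside exons of GENCODE M21, whose Fcgr2b gene starts further upstream, at 170976547, so the sequence before that start was not searched. A match is a description of the letters and not evidence of binding. The windows of Fcgr1 and Fcgr4 are shown, being those of receptors known to be induced by interferon gamma, read 5′ to 3′ along the gene, with both motifs in capitals. Fcgr1 is on the minus strand and Fcgr4 on the plus strand.
Fcgr1, chr3:96293970-96294219: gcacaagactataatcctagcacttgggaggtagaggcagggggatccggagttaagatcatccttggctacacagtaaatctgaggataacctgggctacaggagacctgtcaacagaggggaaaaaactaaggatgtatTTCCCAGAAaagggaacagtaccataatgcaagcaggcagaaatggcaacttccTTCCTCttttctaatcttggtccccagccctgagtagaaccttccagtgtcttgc
Fcgr4, chr1:171018676-171018925: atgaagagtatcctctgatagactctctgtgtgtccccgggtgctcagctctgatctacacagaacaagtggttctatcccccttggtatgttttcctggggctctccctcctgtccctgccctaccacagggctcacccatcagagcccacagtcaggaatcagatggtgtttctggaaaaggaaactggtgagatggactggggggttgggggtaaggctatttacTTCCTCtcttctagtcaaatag

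In the Fcgr1 window the gamma-activated form lies 109 bases and the PU.1 core 55 bases before the start, and in the Fcgr4 window the PU.1 core lies 22 bases before it. Of 18 genes inducible by interferon gamma, 17 were measured and 13 had a log2 ratio below 0, with a median of -0.42. The 2-fold size rule on the FPKM + 1 scale was passed by 0 of them, against 5.16% of all measured genes. At that share, 0 of 17 says little about the list. Gbp4, a guanylate-binding protein, had 51.56 FPKM in FABP7 KO and 103.59 FPKM in WT. In plain FPKM its ratio was 0.498, past 2-fold, while its log2 ratio of -0.993 just missed the rule. Psmb8, an immunoproteasome subunit, had 144.76 FPKM in FABP7 KO and 228.74 FPKM in WT. Cxcl9, a chemokine for T cells, had 16.91 FPKM in FABP7 KO and 12.76 FPKM in WT. Fcgr1 at -0.04 and Fcgr4 at -0.22 lay above the median of that list and below or near that of all genes.

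The genes listed as carrying or restraining the signal of activating receptors were mostly close to equal in both libraries, as the plot of the related lists shows. The 6 lists held 59 genes. They covered ITAM and related adaptors, Src family kinases, Syk and its adaptors, and actin genes of the phagocytic cup. They also covered phospholipase, phosphoinositide 3-kinase and protein kinase C genes, and inhibitory phosphatases and adaptors. Of the 59, 58 were measured, 0 were at least 2-fold higher or lower on the FPKM + 1 scale, and the median log2 ratio was 0.05. Over all measured genes, 5.16% were past 2-fold in either direction. Of the 58, 53 lay within 0.5 of 0, while the 10th and 90th percentiles of all measured genes were -0.50 and 0.51. Tyrobp, the ITAM adaptor DAP12, had 1173.59 FPKM in FABP7 KO and 1130.43 FPKM in WT. In plain FPKM, Hcst, Src and Blnk had ratios above 2 (2.06, 2.07 and 2.24), with Src and Blnk at 4.26 FPKM or below in both libraries. Hcst, the adaptor DAP10, lay at the upper end with 16.74 FPKM in FABP7 KO and 8.12 FPKM in WT (log2 ratio 0.96), and the Src family kinase Fyn at the lower end with 44.36 FPKM in FABP7 KO and 57.62 FPKM in WT (-0.37).

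**Figure D4:**
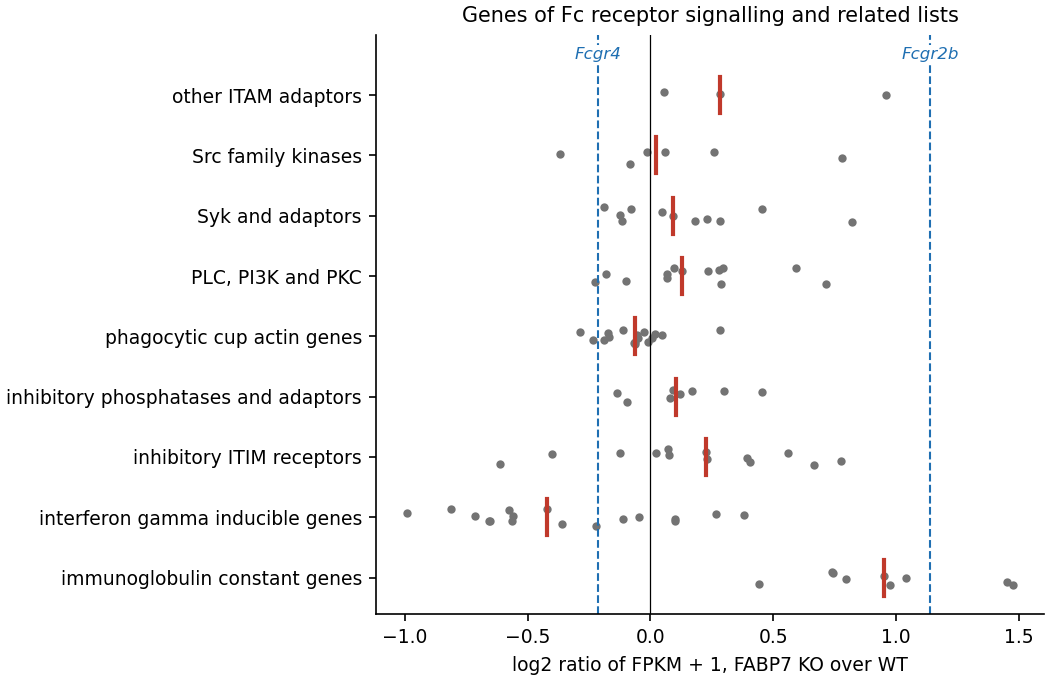
Log2 ratio of FABP7 KO over WT (FPKM + 1) for the measured genes of the related lists, 1 grey point per gene and a red bar at the median of each list, with dashed lines at the values of Fcgr4 and Fcgr2b. The medians of the 6 lists of signalling genes lie between -0.06 and 0.28, that of genes inducible by interferon gamma at -0.42 and that of immunoglobulin constant genes at 0.95.

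Lyn, which phosphorylates the ITAM, had 267.52 FPKM in FABP7 KO and 269.82 FPKM in WT. Syk had 106.91 FPKM in FABP7 KO and 87.60 FPKM in WT. The median log2 ratio was 0.02 over 6 Src family kinases, 0.09 over 11 measured genes of the Syk list, 0.13 over 13 phospholipase and kinase genes and -0.06 over 17 phagocytic cup genes, of which 13 were below 0. On the inhibitory side, Inpp5d, the phosphatase that Fcgr2b recruits, had 83.60 FPKM in FABP7 KO and 89.32 FPKM in WT, and the 8 inhibitory phosphatases and adaptors had a median of 0.10. Fcgr2b thus differed between the libraries by more than any of these 8.

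Of 13 other receptors from families that include ITIM receptors, 0 passed the 2-fold size rule, against 5.16% of all measured genes. At that share, 0 of 13 says little about the list. The log2 ratio was above 0 in 10 of the 13, with a median of 0.23. Sirpa, the receptor for CD47, had 458.77 FPKM in FABP7 KO and 391.80 FPKM in WT. Cd22, a sialic acid receptor best known from B cells, had 43.00 FPKM in FABP7 KO and 24.71 FPKM in WT (0.78), and Cd300lf, a lipid-binding receptor, 48.93 FPKM in FABP7 KO and 75.44 FPKM in WT (-0.61). The log2 ratio of Fcgr2b, 1.14, was above that of each of the 13. Of 8 receptors that pair with Fcer1g, 3 were measured and 0 passed the rule, again against 5.16%. Among the 3, Clec4n, or Dectin-2, had 179.84 FPKM in FABP7 KO and 176.16 FPKM in WT.

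Of 11 further Fc receptor genes, 4 were measured and 1 passed the rule. This was Pigr, which carries polymeric IgA across epithelia, with 3.83 FPKM in FABP7 KO and 1.29 FPKM in WT (log2 ratio 1.08). Fcmr, the IgM receptor, had 1.11 FPKM in FABP7 KO and 0.21 FPKM in WT, and Trim21, a cytosolic antibody receptor, 19.95 FPKM in FABP7 KO and 16.34 FPKM in WT. Fcer1a, the binding chain of the high affinity IgE receptor, was listed at 0 in both. Among the ligands, 9 of 13 immunoglobulin constant genes were measured and 3 were at least 2-fold higher in FABP7 KO on the FPKM + 1 scale, with a median of 0.95. In plain FPKM, Ighg1, Ighg2b and Ighg2c also had ratios above 2 (3.84, 2.22 and 2.31), and with a pseudocount of 0.1 the related list members past 2-fold numbered 13 in place of 5. Ighm had 13.19 FPKM in FABP7 KO and 4.09 FPKM in WT, and Igkc 33.77 FPKM in FABP7 KO and 15.88 FPKM in WT.

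Measured markers of sinusoidal endothelial cells, hepatocytes and B cells mostly moved in the same direction as Fcgr2b, Fcgrt and Fcer2a. The part of these cells in the results was not tested. Markers of natural killer cells and of monocytes had medians below 0 (-0.24 and -0.07). Of 12 markers of sinusoidal endothelial cells, the liver cells best known for Fcgr2b, all were measured and 8 were at least 2-fold higher in FABP7 KO, with a median of 1.54 and a summed level of 637 FPKM in FABP7 KO and 476 FPKM in WT. Clec1b, which Kupffer cells also express, made up 351.51 FPKM of the sum in FABP7 KO and 325.04 FPKM in WT. Stab2 had 118.40 FPKM in FABP7 KO and 79.88 FPKM in WT, and Clec4g 48.45 FPKM in FABP7 KO and 14.17 FPKM in WT. The log2 ratio of Fcgr2b lay inside the range of this list, -0.03 to 1.87.

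**Figure D5:**
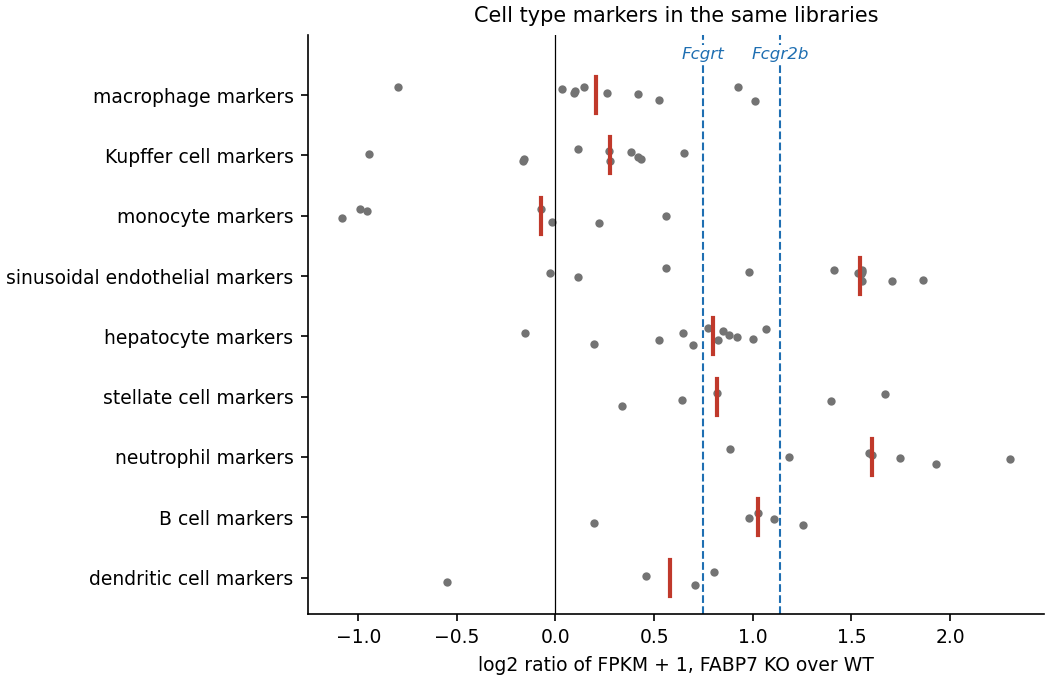
Log2 ratio of FABP7 KO over WT (FPKM + 1) for measured markers of liver and blood cells, 1 grey point per gene and a red bar at the median of each list, with dashed lines at the values of Fcgrt and Fcgr2b. Medians were 1.54 for sinusoidal endothelial cells, 0.80 for hepatocytes, 1.03 for B cells and 0.28 for Kupffer cells.

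Beside Fcgrt, which hepatocytes and endothelial cells also express, 12 hepatocyte markers had a median of 0.80 and a summed level of 916 FPKM in FABP7 KO and 473 FPKM in WT, with 2 at least 2-fold higher. Trf, or transferrin, made up 642.38 FPKM of that sum in FABP7 KO and 306.41 FPKM in WT. Fcgrt was 1.00 times Alb in FABP7 KO and 1.26 times in WT. Beside Fcer2a and Fcrl1, 5 of 10 B cell markers were measured and 3 were at least 2-fold higher, with a summed level of the list of 153 FPKM in FABP7 KO and 99.5 FPKM in WT. Bank1 made up 73.08 FPKM of it in FABP7 KO and 63.66 FPKM in WT. None of the 10 was at 0 in both libraries. Cd79b, a chain of the B cell receptor, had 18.14 FPKM in FABP7 KO and 7.89 FPKM in WT.

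Cells that carry Fcgr3, Fcgr4 or Fcer1g besides macrophages were also checked. Of 10 neutrophil markers 7 were measured and 6 were at least 2-fold higher, with a summed level of 111 FPKM in FABP7 KO and 39.1 FPKM in WT. Csf3r, the measured marker short of 2-fold (log2 ratio 0.89), made up 51.31 FPKM of that sum in FABP7 KO and 27.28 FPKM in WT. S100a9 had 25.26 FPKM in FABP7 KO and 4.31 FPKM in WT. The part of neutrophils in the levels of Fcgr3, Fcgr4 and Fcer1g was not tested. The natural killer cell marker Gzma had 3.10 FPKM in FABP7 KO and 3.77 FPKM in WT, and 2 of 8 markers of that cell were measured, with a median of -0.24. Of 8 mast cell and basophil markers 1 was measured (Hdc, 1.63 FPKM in FABP7 KO and 0.83 FPKM in WT) and 4 were at 0 in both.

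Macrophage markers had a median of 0.20 (1 of 10 at least 2-fold higher) and Kupffer cell markers one of 0.28 (0 of 10), so that Fcgr1, Fcgr3, Fcgr4 and Fcer1g, at -0.22 to 0.06, lay below both. Csf1r, the receptor for the macrophage growth factor, had 3172.56 FPKM in FABP7 KO and 2372.03 FPKM in WT, and Lyz2 2630.63 FPKM in FABP7 KO and 1387.07 FPKM in WT. The lists were not uniform, with log2 ratios of -0.80 to 1.01 for macrophage markers (9 of 10 above 0) and -0.95 to 0.65 for Kupffer cell markers (7 of 10 above 0). At their lower ends, and named after their values were seen, the scavenger receptor Marco had 713.62 FPKM in FABP7 KO and 1376.69 FPKM in WT, and Cd163, which takes up hemoglobin with haptoglobin, 123.36 FPKM in FABP7 KO and 215.60 FPKM in WT. Cd5l, the highest Kupffer cell marker, had 6001.32 FPKM in FABP7 KO and 6695.70 FPKM in WT. Of 7 measured monocyte markers 1, Plac8, was at least 2-fold lower, with 427.32 FPKM in FABP7 KO and 907.59 FPKM in WT. Dendritic cell markers had a median of 0.58 over 4 measured genes, stellate cell markers 0.82 over 5 and plasma cell markers 0.31 over 2.

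The genes with the levels nearest to each member, by Euclidean distance in log2(FPKM + 1) over the 2 libraries, were also listed. The nearest to Fcgr3 was Siglec1, the sialoadhesin of resident macrophages, with 453.00 FPKM in FABP7 KO and 436.94 FPKM in WT (distance 0.0079), followed by Timd4, and the nearest to Fcgr1 was Slfn2 (0.018). Fcgr4 lay nearest to Tpm3 (0.071) and Fcer1g to Irf7 (0.041). Fcgr2b lay nearest to Ypel3 (0.031), Igkc and Icos, and Fcgrt to Tcn2 (0.13). With 2 libraries such likeness says only that both values were close.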

How the data were processed

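Liver macrophage mRNA, selected with oligo(dT), was measured in 1 FABP7 KO and 1 WT library. The authors deposited FPKM values for 22322 genes. Bowtie2 2.2.8 and TopHat2 2.1.1 are listed in the submitters' processing notes with no role. The build, annotation, counting tool and strand setting were not given in the sources used here. Groups were taken from the sample titles. One other label calls the FABP7 KO sample a knockdown.

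Symbols were assigned by Ensembl ID from GENCODE M21 (22267 matched, 55 did not). Log2 ratios of FABP7 KO over WT used a pseudocount of 1 over the 10770 genes at 1 FPKM or more in a library. The size rule was a log2 ratio of 1. Lists were described by counts and medians, with no test. Named genes were the members, the extremes and most abundant genes of each list, and the nearest 3 genes of members at 10 FPKM or more. The members, the lists and this rule were chosen with earlier results of these data known. A few genes of the lists are not reported here.

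Depth was estimated from the steps of low FPKM values, which fell within 0.15 of whole fragments for 90.5% of 147 values in FABP7 KO and 88.3% of 154 in WT, against 30% by chance. Fragment numbers per gene assume the longest coding transcript. Counting intervals are exact binomial (Clopper-Pearson) at 95% and cover counting error only. Alternatives changed the pseudocount, the floor, the scaling, the size rule, the handling of rows that share a symbol and the form of the activating to inhibitory ratio. Steps were tested on simulated data. Python 3.11.15, NumPy 2.4.6, pandas 2.3.3, SciPy 1.17.1 and Matplotlib 3.10.9 were used.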

Additional observations from a re-analysis of the deposited data

How the results depend on the processing

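With 1 library per genotype neither replicate could be left out. No paired analysis was possible because each genotype had 1 library. Over the alternatives, Fcgr2b kept a log2 ratio of 1.14 to 1.19, Fcgrt 0.75 to 0.80, Fcer2a 1.03 to 2.37 and Fcgr4 -0.22 to -0.16. The activating to inhibitory ratio had a log2 difference of -1.41 to -1.13. That range comes only from the choice of activating receptors, always over the same Fcgr2b values. The other alternatives do not enter this ratio or cancel in it. Fcgr1 was at 0.01 instead of -0.04 with libraries scaled to equal totals without hepatocyte, hemoglobin and mitochondrially encoded genes, on the same side of the size rule. Of 55 member values under alternatives, 54 stayed on their side of the rule, and Fcgrt passed it at 1.5-fold. Most of these values could not move. The floors, the summed rows and the 1.5-fold rule left the log2 ratio of each member they kept unchanged. Only the pseudocount and the scalings could shift one. Members past 2-fold numbered 1 with a floor of 5 FPKM, which removes Fcer2a. With a pseudocount of 0.1, 562 genes were at least 2-fold higher, against 238 as reported, and 13 related list members passed, against 5. With a floor of 5 FPKM these were 143 genes and 3 list members. At 1.5-fold, 863 genes were higher and 792 lower, and 24 list members passed. The shorter Fcgr2b transcript was tried after the values were seen and left the Fcgr2b ratio at 2.28, since a length cancels between libraries. Fcer2a, with about 58 and 8 fragments, is the member that depth limits most.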
